A study of Rattus norvegicus with 13 samples.

Results

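The genes described here are receptors for steroid hormones and genes that respond to them in the mammary gland, namely *Esr1*, *Pgr*, *Nr3c1*, *Greb1*, *Tnfsf11*, *Cited1* and *Tff3*. They were chosen by symbol, and 5 of the 7 genes have a row in the table of 14790 genes. *Nr3c1* has 2 rows under different Ensembl identifiers, so that the 5 genes correspond to 6 records. *Tnfsf11* and *Tff3* were not analysed here. RNA-seq was taken from mammary epithelial cells of 13 Wistar-Furth rats, 6 of which were aged 6 weeks (within WOS, the window of susceptibility to mammary carcinogenesis) and 7 at 10 weeks (outside WOS). The cells of each rat came from abdominal and inguinal glands digested with collagenase and passed over a filter, and gave 1 library, so each rat counts as 1 replicate. No genetic change or treatment is named for either age. Per the study's methods the ductal fragments also hold stromal fibroblasts and immune cells, and the stage of the estrous cycle at collection is not given in the sources used here.

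*Esr1* encodes estrogen receptor alpha and *Pgr* the progesterone receptor, both of which bind DNA once their hormone is bound. In the mammary gland they are found in a subset of luminal cells, the hormone-sensing cells, which pass the signal to their neighbors through secreted factors such as amphiregulin, WNT4 and RANKL, the product of *Tnfsf11*. *Nr3c1* encodes the glucocorticoid receptor, which is found in most cell types. *Greb1* is a classical estrogen-induced gene whose product binds the estrogen receptor, and *Cited1* encodes a transcriptional coregulator that works with the estrogen receptor and is a marker of hormone-sensing luminal cells.

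The sequence before the gene start is shown for *Cited1* and *Pgr*. *Cited1* was the only one of these genes to pass the test between the ages described below, and it did so close to the threshold. *Pgr* had its lowest levels in the same rats as *Greb1*, for which the promoter table used here has no entry. Both stretches hold the 250 bases before the gene start in RefSeq (build GRCr8, a build other than that of the counts), and are written 5′ to 3′ on the strand of the gene. The stretches were searched on both strands for the estrogen response element (GGTCA, then 3 bases of any kind, then TGACC), for its core GGTCA alone, which the full element contains, for the element shared by glucocorticoid and progesterone receptors (GNACA, then 3 bases of any kind, then TGTNC), and for TGTTCT, a core of that element. The capitals mark the only match, an estrogen core on the opposite strand of *Cited1*, which starts at position -240 from the gene start.
Cited1, chrX:71395024-71395273, minus strand: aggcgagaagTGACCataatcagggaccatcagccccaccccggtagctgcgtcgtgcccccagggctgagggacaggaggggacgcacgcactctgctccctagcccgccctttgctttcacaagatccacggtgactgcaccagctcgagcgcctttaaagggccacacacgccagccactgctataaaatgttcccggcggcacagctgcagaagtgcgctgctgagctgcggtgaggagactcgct
Pgr, chr8:14354148-14354397, plus strand: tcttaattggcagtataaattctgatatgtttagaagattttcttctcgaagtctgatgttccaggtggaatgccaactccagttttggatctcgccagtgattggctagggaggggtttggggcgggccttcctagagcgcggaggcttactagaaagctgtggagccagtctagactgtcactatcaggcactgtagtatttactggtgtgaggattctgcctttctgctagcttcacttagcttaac
None of these 4 motifs was found before *Pgr*, nor before *Esr1*. Over 33469 rat promoters of this length the full estrogen element was present in 0.0239%, its core in 35.4%, the glucocorticoid and progesterone element in 0.373% and TGTTCT in 17.5%, so a single core is a common match.

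All values below are normalized counts, that is, RSEM counts that the authors scaled per library and rounded to whole numbers. The totals per rat lay between 13261906 and 15659533 within WOS and between 13766735 and 15402814 outside WOS, and since they are scaled they do not show the depth of sequencing. Values on the log2(normalized count + 1) scale were tested between the ages with limma, with p-values adjusted after Benjamini-Hochberg over all 14790 genes. A log2 fold change above 0 stands for a higher level at 6 weeks. Because 1 is added before the log, changes of low values appear smaller than they are. The samples are bulk samples, in which fewer cells of a type and less RNA per cell cannot be told apart. Apart from age, the leading principal component of the table accounted for 28.3% of what varied between rats, and its widest gap separated a larger set of 8 (rats 70, 71, 84 and 86 within WOS and 72, 74, 85 and 87 outside WOS) from a smaller set of 5 (rats 75 and 80 within WOS and 78, 81 and 83 outside WOS). No label names this split. Values within the sets are given for the 6 records.

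Of the 6 records, 1 had an adjusted p under 0.05 in limma. By this rule 16.1% of all genes were called, 8.71% as higher within WOS and 7.39% as higher outside WOS, so that 1 in 6 records is near the background. The record was that of *Cited1*, which was higher within WOS. Neither estrogen receptor alpha, nor the progesterone receptor, nor the glucocorticoid receptor passed the test, and the ages overlapped in each of the 6 records, whereas 6.07% of all genes had no overlap between the ages (3.29% with every rat higher within WOS and 2.78% with every rat higher outside WOS).

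**Figure D1:**
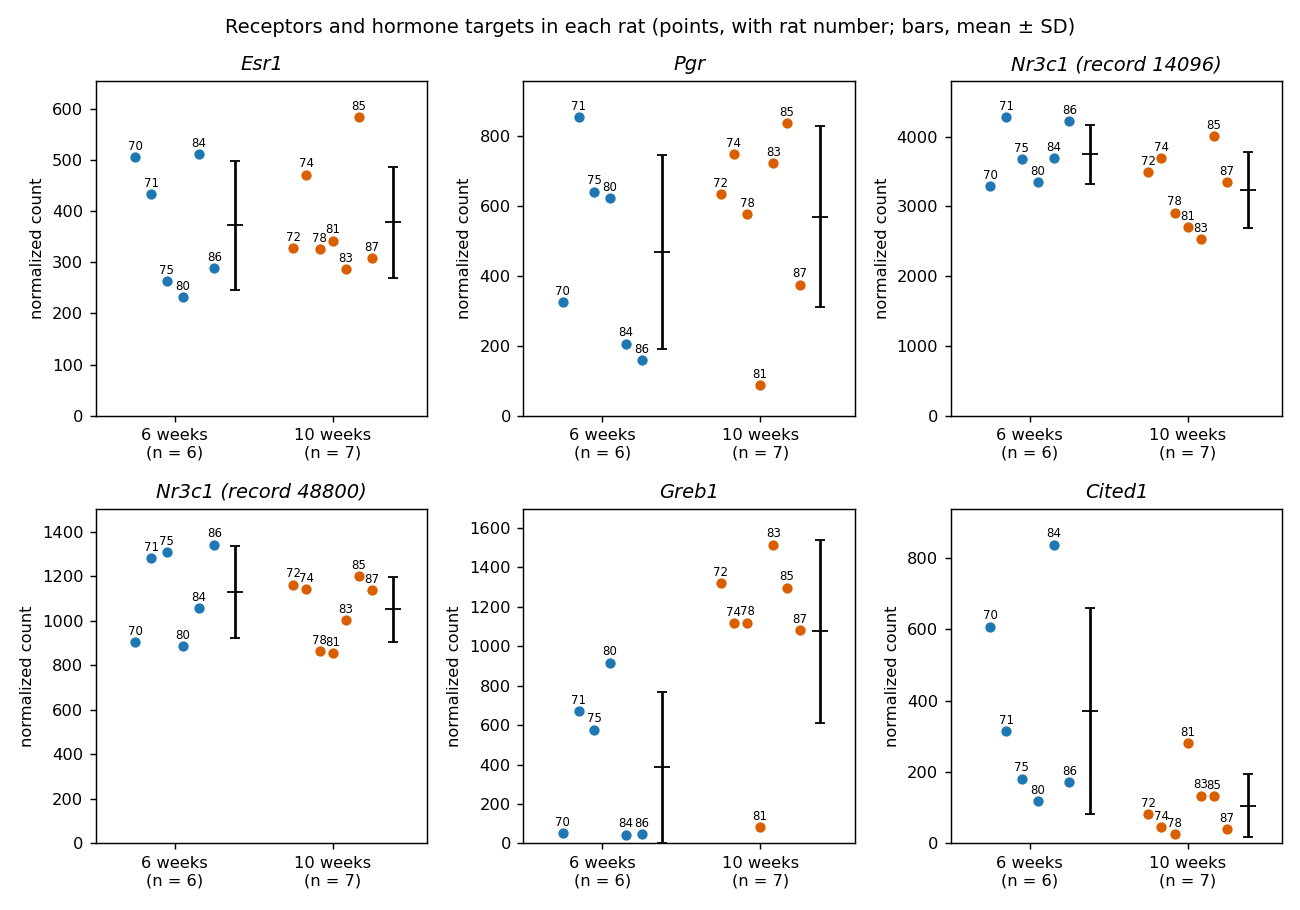
Normalized counts (vertical axis, starting at 0) of the 6 records in each rat, with the rat number beside each point and the mean ± SD of each age as a bar. *Esr1* lies at 232 to 512 at 6 weeks and 287 to 584 at 10 weeks, 4 rats lie at 45 to 81 for *Greb1* while the other 9 lie at 577 or more, and all 6 rats at 6 weeks lie above the 10-week median of 82 for *Cited1*.

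The level of *Esr1* differed less between the ages than among rats of either age. It ran from 232 to 512 within WOS (median 361) and from 287 to 584 outside WOS (median 327), and the ranges overlapped over most of their length. Its mean was 372.5 ± 126 (SD, n = 6) at 6 weeks and 378 ± 109 (SD, n = 7) at 10 weeks. The log2 fold change was -0.048 with a standard error of 0.23 and a 95% interval from -0.55 to 0.45, and the adjusted p in limma was 0.906. The larger set of rats alone gave 0.057 (adjusted p = 0.886 in limma) and the smaller set alone -0.36 (adjusted p = 0.430). Within WOS, *Esr1* was highest in rats 84, 70 and 71, at 512, 506 and 433, and lowest in rats 80, 75 and 86, at 232, 263 and 289. Outside WOS rats 85 and 74 were highest, at 584 and 471, and the other 5 rats lay between 287 and 342.

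The progesterone receptor gene *Pgr*, itself a target of the estrogen receptor, varied more between rats than between ages. Within WOS rats 71, 75 and 80 were at 855, 641 and 623, and rats 70, 84 and 86 at 325, 206 and 160. Outside WOS rat 81 was at 87, rat 87 at 375, and the remaining rats 72, 74, 78, 83 and 85 at 635, 748, 576, 722 and 838. Low and high rats were thus present at both ages, and the lowest and the second highest of all 13 values were found outside WOS. Mean levels were 468 ± 278 (SD, n = 6) at 6 weeks and 569 ± 259 (SD, n = 7) at 10 weeks. For *Pgr* the log2 fold change was -0.27 with a standard error of 0.55 and a 95% interval from -1.46 to 0.91, and the adjusted p in limma was 0.767. The 8 rats of the larger set gave -1.004 (adjusted p = 0.175 in limma) and the 5 rats of the smaller set 0.93 (adjusted p = 0.708), so its direction depended on the set. Leaving out 1 rat moved it between -0.68 (without rat 81) and -0.015 (without rat 86).

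*Nr3c1* is split over 2 records, and the counting may have divided reads of the gene between them, so the values of each are uncertain. In the first record (ENSRNOG00000014096) the level ran from 3290 to 4283 within WOS (median 3680.5) and from 2528 to 4009 outside WOS (median 3350), and 2 rats within WOS lay above every rat outside WOS. This record had a log2 fold change of 0.22 with a standard error of 0.13 and a 95% interval from -0.056 to 0.50, and its adjusted p in limma was 0.254. The larger set gave 0.086 (adjusted p = 0.622) and the smaller 0.37 (adjusted p = 0.400). In the second record (ENSRNOG00000048800) the level ran from 886 to 1343 within WOS (median 1171) and from 855 to 1200 outside WOS (median 1137). Its log2 fold change was 0.096 with a standard error of 0.14 and a 95% interval from -0.21 to 0.40, and its adjusted p in limma was 0.674. It was -0.034 (adjusted p = 0.872) in the larger set and 0.25 (adjusted p = 0.652) in the smaller. With both records summed, a setting added once the values had been seen, the log2 fold change of *Nr3c1* was 0.19 and the adjusted p in limma 0.320. The intervals of both records thus lay within 0.50 of no change on the log2 scale, a narrower limit than for *Pgr*, *Greb1* or *Cited1*.

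*Greb1* was split into low and high rats, with no rat between 81 and 577. Within WOS rats 84, 86 and 70 were at 45, 48 and 54, and rats 75, 71 and 80 at 577, 671 and 917. Outside WOS rat 81 was at 81, and the other 6 rats were at 1081, 1115, 1119, 1297, 1318 and 1515. The low level was therefore present at both ages, in 3 of 6 rats within WOS and in 1 of 7 outside WOS. All 6 rats within WOS lay below the median outside WOS of 1119. Mean levels were 385 ± 385 (SD, n = 6) at 6 weeks and 1075 ± 464 (SD, n = 7) at 10 weeks. *Greb1* had a log2 fold change of -2.15 with a standard error of 0.92 and a 95% interval from -4.13 to -0.17. Its unadjusted p of 0.0352 did not pass after adjustment (adjusted p = 0.126 in limma), and 31.6% of all genes had an unadjusted p under 0.05.

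The call for *Greb1* rested on which rats were used. Without rat 81 the log2 fold change of *Greb1* was -2.71 and the adjusted p in limma was 0.0338, whereas leaving out any other single rat gave an adjusted p between 0.0705 and 0.255. In the larger set of rats *Greb1* had a log2 fold change of -3.65 (adjusted p = 0.0194 in limma). In the smaller set, which holds rat 81 and none of rats 70, 84 and 86, it was 0.49 (adjusted p = 0.895). Sample quality weights in limma gave -2.56 (adjusted p = 0.0189).

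The 4 rats lowest for *Greb1*, 70, 84 and 86 within WOS and 81 outside WOS, were also the 4 lowest for *Pgr*, where they lay between 87 and 325 and the next rat at 375. This order was looked up after the values were seen, and it is shared by 0.818% of the table, or 121 genes with *Greb1* counted. A further 148 genes had these rats as their 4 highest. Among the 150 records of the hormone pathway lists described below, 2 shared the order (1.33%), which is near the share over the whole table. One was *Stc2*, which encodes stanniocalcin 2, a secreted glycoprotein induced by estrogen. It was at 58, 46 and 32 in rats 70, 84 and 86, at 31 in rat 81, and between 76 and 300 in the other rats. The other was *Tgfa*, which encodes the EGF receptor ligand transforming growth factor alpha and stood between 436 and 543 in these 4 rats and between 797 and 1190 in the others. Neither passed the test between the ages in limma, with log2 fold changes of -0.36 for *Stc2* (adjusted p = 0.719) and -0.42 for *Tgfa* (adjusted p = 0.249).

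**Figure D2:**
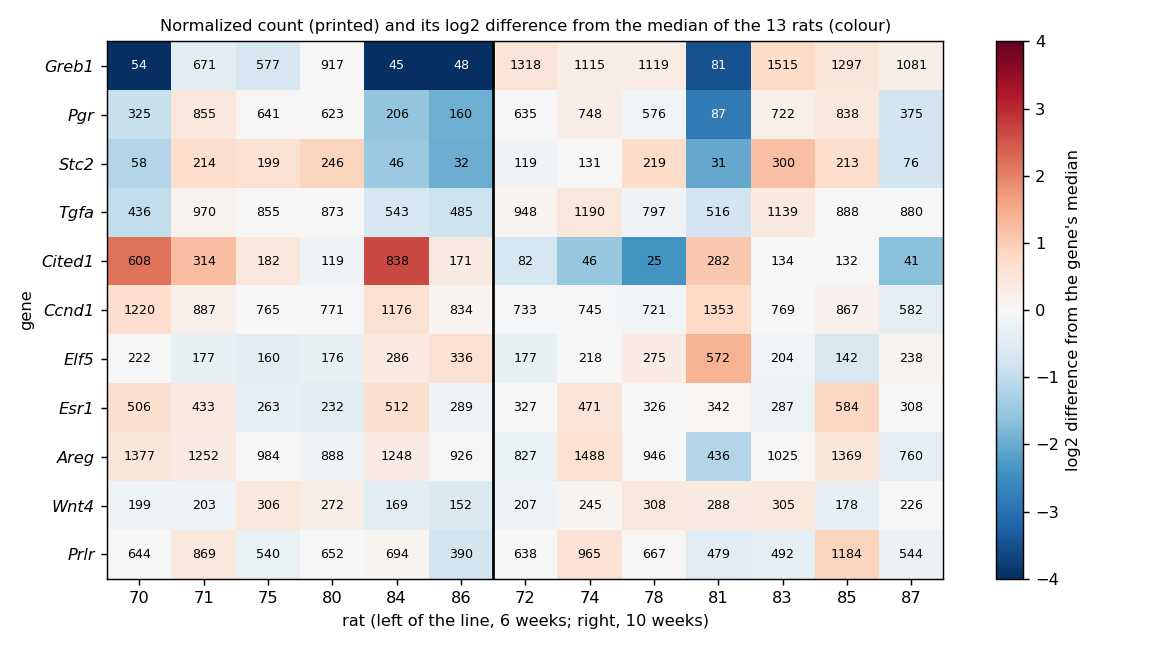
Normalized counts (numbers in the cells) of 11 genes in the 13 rats, with rats at 6 weeks left of the line and rats at 10 weeks right of it, and the color giving the log2 difference from the median of the gene over all rats. *Greb1*, *Pgr*, *Stc2* and *Tgfa* are blue in rats 70, 84, 86 and 81, while *Esr1* in the same rats runs from 289 to 512.

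*Cited1* was higher within WOS. Within WOS its level was 838 in rat 84, 608 in rat 70, 314 in rat 71, 182 in rat 75, 171 in rat 86 and 119 in rat 80. Outside WOS it was 282 in rat 81, 134 in rat 83, 132 in rat 85, 82 in rat 72, 46 in rat 74, 41 in rat 87 and 25 in rat 78. All 6 rats within WOS lay above the median outside WOS, 3 of them lay above every rat outside WOS, and the other 3 lay below rat 81. Mean levels were 372 ± 289 (SD, n = 6) at 6 weeks and 106 ± 88.9 (SD, n = 7) at 10 weeks. *Cited1* had a log2 fold change of 1.86 with a standard error of 0.59 and a 95% interval from 0.58 to 3.13, and the adjusted p in limma was 0.0489.

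This value is close to the threshold, and the call was lost under several settings. Of the 13 fits that left out 1 rat each, the adjusted p of *Cited1* stayed under 0.05 only without rat 80 (0.0356) and without rat 81 (0.0197). In the other 11 fits it lay between 0.0504 and 0.113, and the log2 fold change over all 13 fits lay between 1.55 and 2.16. Within the larger set of rats *Cited1* had a log2 fold change of 2.58 (adjusted p = 0.0175 in limma) and within the smaller set one of 0.57 (adjusted p = 0.836).

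Whether the other genes followed *Esr1* among rats of 1 age was asked with correlations of log2(normalized count + 1) with the age means taken out, in 5 relations. For *Pgr* the Pearson r was 0.029 and Spearman's rho -0.033 over 13 rats (permutation test, p = 0.926 for both, and p = 0.926 and 0.949 after adjustment over the 5 relations). The r of *Pgr* was -0.26 within WOS alone, 0.31 outside WOS alone and 0.48 in the larger set (exact permutation test, adjusted p = 0.942, 0.824 and 0.509). For *Cited1* the Pearson r was 0.53 and rho 0.52 (permutation test, p = 0.0749 and 0.0739, adjusted p = 0.347 and 0.264), and r was 0.38 without rats 84 and 85, the farthest from the median of *Esr1*. In the larger set of 8 rats *Cited1* had an r of 0.75 and a rho of 0.88 (exact permutation test, adjusted p = 0.243 and 0.0694). Within WOS alone *Cited1* and *Esr1* had an r of 0.96 over 6 rats (exact permutation test, p = 0.00556, adjusted p = 0.0278) and a rho of 0.94 (exact permutation test, adjusted p = 0.0833). Each adjustment covered the 5 relations of its own set of rats, and none covered all the sets looked at. Outside WOS alone r was 0.10 and rho 0.18 over 7 rats (exact permutation test, p = 0.820 and 0.713, adjusted p = 0.941 and 0.713), and the difference between the ages was not tested. For *Nr3c1*, r was 0.42 and rho 0.42 in the first record (permutation test, p = 0.139 and 0.142, adjusted p = 0.347 and 0.264) and r was 0.094 and rho -0.027 in the second (permutation test, p = 0.770 and 0.949, adjusted p = 0.926 and 0.949). In the first record r was 0.28 without rats 84 and 85 and 0.0033 in the larger set of 8 rats (exact permutation test, adjusted p = 1). Within WOS alone its r was 0.022 over 6 rats (exact permutation test, adjusted p = 0.942), and outside WOS alone 0.77 over 7 rats (exact permutation test, p = 0.0385, adjusted p = 0.192). For *Greb1*, r was -0.31 and rho -0.45 over 13 rats (permutation test, p = 0.344 and 0.159, adjusted p = 0.573 and 0.264). Within WOS alone its r was -0.56 and rho -0.71 (exact permutation test, adjusted p = 0.358 and 0.340), and outside WOS alone 0.10 and -0.25 (adjusted p = 0.941 and 0.713). The rats of *Greb1* fell into separate clusters, so these values say little about order within either.

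**Figure D3:**
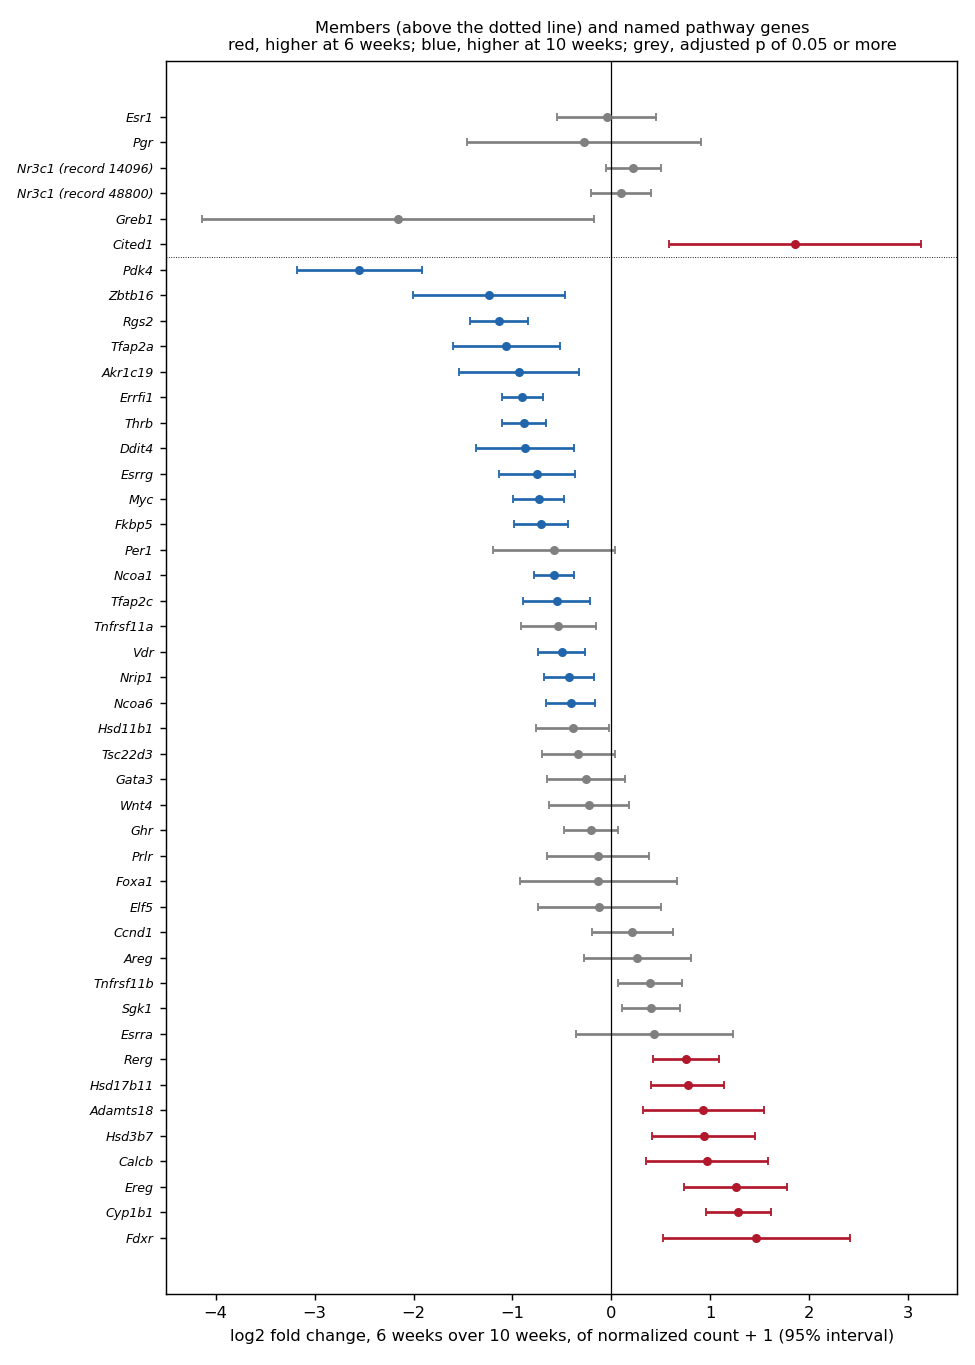
Log2 fold changes of normalized count + 1, 6 weeks over 10 weeks (horizontal axis), with 95% intervals from limma, for the 6 records above the dotted line and named pathway genes below it. Red marks genes called higher at 6 weeks and blue genes called higher at 10 weeks, and grey marks an adjusted p of 0.05 or more. Among the 6 records the interval of *Nr3c1* is the narrowest and that of *Greb1* the widest.

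Genes whose levels followed those of the receptors and of *Greb1* most closely were taken from the whole table, among genes with a mean of at least 100, as a description over the 13 rats with the mean of each age removed. For *Esr1* these were LOC103689931, *Ensa* and *Calm2*, with r between 0.953 and 0.956. For *Pgr* they were *Gas2l3* (0.975), RGD1561931 (0.965) and *Btc* (0.964), which encodes the EGF receptor ligand betacellulin. For *Greb1* they were *Slc4a11* (0.969), *Slc3a2* (0.964) and RGD1561931 (0.964), so that RGD1561931 was among the closest genes of both *Pgr* and *Greb1*. For *Greb1* these values span its separate clusters of low and high rats, and say little about order within either. For *Nr3c1* they were *Tmem30a*, *Jak1* and SCARNA7 in the first record, with r between 0.961 and 0.964, and *Camsap2*, *Map4k3* and NEWGENE_1559832 in the second, with r between 0.920 and 0.937. All genes of a rat come from the same library, and these were the highest values among all genes of the table.

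Other receptors for steroid, thyroid and peptide hormones and for vitamin D, with related orphan receptors, were read from a list of 14 genes, of which 11 have a row. None rose within WOS and 4 fell, against 7.39% of all genes, and the median log2 fold change of the list was -0.21, beside 0.028 over all genes. *Thrb*, the thyroid hormone receptor beta, was at 253 to 341 within WOS (median 275.5) and at 474 to 588 outside WOS (median 534), with no overlap between the ages, and had a log2 fold change of -0.88 (SE 0.10, adjusted p = 0.000224 in limma). The vitamin D receptor *Vdr* had a log2 fold change of -0.50 (adjusted p = 0.0102) and the orphan receptor *Esrrg* one of -0.75 (adjusted p = 0.0140). *Thrb*, *Vdr* and *Esrrg* kept an adjusted p under 0.05 whichever rat was left out. The prolactin receptor *Prlr* (log2 fold change -0.13, adjusted p = 0.737), the growth hormone receptor *Ghr* (-0.21, adjusted p = 0.290) and the estrogen-related receptor *Esrra* (0.43, adjusted p = 0.443) did not pass the test.

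Of the genes that carry or answer the estrogen and progesterone signal, 40 of 44 on the list have a row, in 41 records. Within WOS 6 records rose and 3 fell, where 8.71% of all genes rose and 7.39% fell, and the median log2 fold change was 0.13. The share that fell is near the background. Of the secreted factors named above, *Areg* and *Wnt4* did not pass the test. Amphiregulin, *Areg*, was at 888 to 1377 within WOS (median 1116) and at 436 to 1488 outside WOS (median 946), with a log2 fold change of 0.26 (SE 0.25, adjusted p = 0.506 in limma), and *Wnt4* had a log2 fold change of -0.23 (SE 0.19, adjusted p = 0.430). The receptor of RANKL, *Tnfrsf11a*, had a log2 fold change of -0.54 (SE 0.18, adjusted p = 0.0567) and its decoy receptor *Tnfrsf11b* one of 0.39 (SE 0.15, adjusted p = 0.0910). Cyclin D1, *Ccnd1*, which drives entry into the cell cycle, had a log2 fold change of 0.21 (adjusted p = 0.467), and the luminal progenitor regulator *Elf5* one of -0.12 (adjusted p = 0.805).

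Among the genes of this list that rose, *Ereg*, which encodes the EGF receptor ligand epiregulin, was at 178 to 367 within WOS (median 328) and at 77 to 196 outside WOS (median 130). Of the 6 rats within WOS, 5 lay above every rat outside WOS, and the log2 fold change of *Ereg* was 1.26 (SE 0.24, adjusted p = 0.00457 in limma). *Rerg*, a small GTPase named for its regulation by estrogen, was at 81 to 117 within WOS (median 113) and at 45 to 77 outside WOS (median 59), without overlap, and rose by 0.75 on the log2 scale (SE 0.15, adjusted p = 0.00649 in limma). *Calcb*, a calcitonin-related peptide gene (0.97, adjusted p = 0.0377), and the matrix protease *Adamts18* (0.93, adjusted p = 0.0425) also rose. These calls for *Calcb* and *Adamts18* held in 5 and 4 of the 13 fits that left out 1 rat each. *Igfbp4* and *Tgm2* rose as well. The genes that fell were *Myc*, *Hbegf* and *Xbp1*. *Myc*, a driver of growth and an early target of estrogen, was at 2731 to 3566 within WOS (median 3077) and at 4234 to 6359 outside WOS (median 5218), without overlap, and had a log2 fold change of -0.73 (SE 0.12, adjusted p = 0.00172 in limma). Over the list, 5 records had no overlap between the ages, against 6.07% of all genes.

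Of the coregulators and pioneer factors that work with these receptors, all 33 on the list have a row. None rose within WOS and 6 fell, where 7.39% of all genes fell, and the median log2 fold change was -0.21. The coactivator *Ncoa1* was at 983 to 1120 within WOS (median 1036.5) and at 1318 to 1720 outside WOS (median 1613), without overlap, and had a log2 fold change of -0.58 (SE 0.10, adjusted p = 0.00179 in limma). The AP-2 factor *Tfap2a* had the largest log2 fold change of the called genes on this list, at -1.06 (SE 0.25, adjusted p = 0.0139 in limma), and *Tfap2c* one of -0.55 (adjusted p = 0.0320). *Nrip1*, which encodes the corepressor RIP140 and is itself induced by estrogen, was at 6447 to 9161 within WOS (median 7164.5) and at 8329 to 11664 outside WOS (median 9933), with a log2 fold change of -0.43 (SE 0.12, adjusted p = 0.0288 in limma). *Ncoa6* (-0.41, adjusted p = 0.0280) and *Ncor1*, which encodes a corepressor (-0.36, adjusted p = 0.0299), made up the rest. The calls of *Nrip1*, *Tfap2c* and *Ncoa6* held in 8, 7 and 7 of the 13 fits that left out 1 rat each. The pioneer factor *Foxa1*, which opens chromatin for the estrogen receptor, had a log2 fold change of -0.13 (SE 0.37, adjusted p = 0.834), and *Gata3*, which specifies luminal cells, one of -0.26 (SE 0.18, adjusted p = 0.351). Scaling by library size gave 3 calls in place of 6.

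The chaperones that hold steroid receptors ready for their hormone gave 0 calls in limma among 16 records of 15 genes, with 1 record at an unadjusted p under 0.05, and their median log2 fold change was -0.044. *Fkbp5*, an inhibitory partner of the receptor complex that glucocorticoids induce, was read with the glucocorticoid targets.

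**Figure D4:**
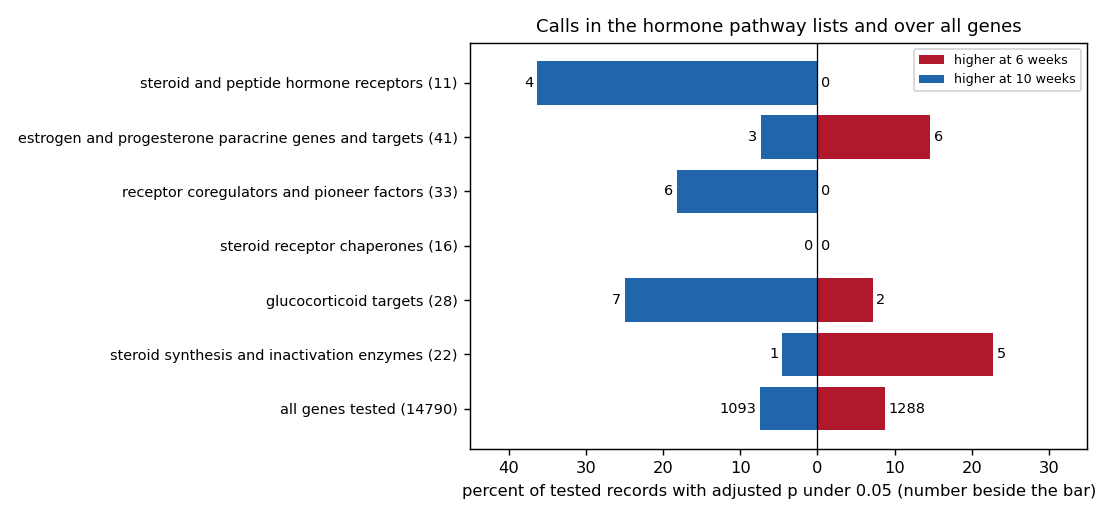
Percent of the records of each hormone pathway list with an adjusted p under 0.05 in limma, to the right where higher at 6 weeks and to the left where higher at 10 weeks, with the number of records called beside each bar and the number tested in parentheses. The receptors and the coregulators have calls only to the left, the glucocorticoid targets have 7 to the left and 2 to the right, and the steroid enzymes 5 to the right and 1 to the left.

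Targets of the glucocorticoid receptor were mostly lower within WOS where they passed the test. Of 28 records (from 30 genes listed), 7 fell and 2 rose, where 7.39% of all genes fell and 8.71% rose, and the median log2 fold change was -0.24. The ages did not overlap in 6 records, against 6.07% of all genes. *Pdk4*, a kinase that shuts down pyruvate oxidation in fasting, was at 733 to 1462 within WOS (median 1314) and at 3981 to 13242 outside WOS (median 7806), and every rat within WOS was below every rat outside WOS. *Pdk4* had a log2 fold change of -2.55 (SE 0.29, adjusted p = 0.000206 in limma). *Rgs2*, a brake on G protein signaling, was at 1092 to 1524 within WOS (median 1275) and at 2096 to 3650 outside WOS (median 2986), with a log2 fold change of -1.14 (SE 0.14, adjusted p = 0.000262 in limma).

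*Errfi1*, which encodes an inhibitor of the EGF receptor, was at 9376 to 10697 within WOS (median 10360) and at 15524 to 22337 outside WOS (median 19411), with a log2 fold change of -0.90 (SE 0.10, adjusted p = 0.000170 in limma). *Fkbp5* was at 199 to 296 within WOS (median 234) and at 349 to 494 outside WOS (median 388), with a log2 fold change of -0.71 (SE 0.13, adjusted p = 0.00281 in limma). The ages did not overlap for either gene, and both calls held whichever rat was left out. *Ddit4*, an inhibitor of mTOR signaling (-0.87, adjusted p = 0.0222), the zinc finger factor *Zbtb16* (-1.24, adjusted p = 0.0335) and *Sdc1* also fell, and *Zbtb16* kept its call in 7 and *Ddit4* in 11 of the 13 fits without 1 rat. The genes that rose were *Tgm2*, which is also on the estrogen list, and *Cdkn1c*. Other well known targets did not pass the test, with log2 fold changes of -0.58 for the clock gene *Per1* (adjusted p = 0.179), -0.33 for *Tsc22d3*, which encodes GILZ (adjusted p = 0.195), and 0.40 for the kinase gene *Sgk1* (adjusted p = 0.0637). With rat 81 left out the list had a median of -0.12, and within the larger set one of -0.080.

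**Figure D5:**
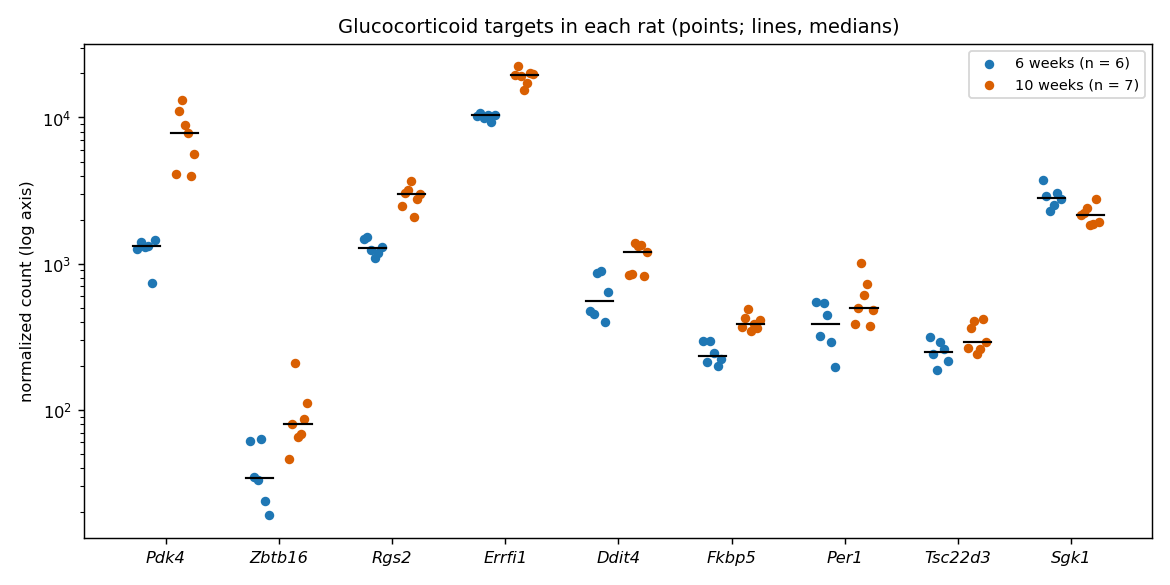
Normalized counts on a log axis of 9 glucocorticoid targets in each rat (blue, 6 weeks, n = 6; orange, 10 weeks, n = 7), with the median of each age as a line. *Pdk4*, *Rgs2*, *Errfi1* and *Fkbp5* show no overlap between the ages, whereas *Per1*, *Tsc22d3* and *Sgk1* overlap.

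The enzymes that make and inactivate steroids have 22 records of 32 genes listed, of which 5 rose and 1 fell within WOS, where 8.71% of all genes rose and 7.39% fell, with a median log2 fold change of 0.32. *Cyp1b1*, which hydroxylates estrogens and polycyclic hydrocarbons, was at 3836 to 6947 within WOS (median 4877.5) and at 1665 to 2556 outside WOS (median 1987), without overlap, and rose by 1.28 on the log2 scale (SE 0.15, adjusted p = 0.000244 in limma). The 17-beta-hydroxysteroid dehydrogenases *Hsd17b11* (0.77, adjusted p = 0.0103) and *Hsd17b12* (0.71, adjusted p = 0.0198) rose too, as did *Hsd3b7* of bile acid synthesis (0.93, adjusted p = 0.0216). *Fdxr*, which passes electrons to mitochondrial steroid hydroxylases, had low levels of 13 to 23 within WOS and 1 to 15 outside WOS and a log2 fold change of 1.46 (adjusted p = 0.0392 in limma). *Akr1c19*, an aldo-keto reductase gene also at low levels (11 to 27 within WOS and 16 to 51 outside WOS), fell by 0.94 on the log2 scale (adjusted p = 0.0395 in limma). The calls of *Fdxr* and *Akr1c19* each held in 4 of the 13 fits without 1 rat, and that of *Hsd3b7* in 12. *Hsd11b1*, which regenerates active glucocorticoid, had a log2 fold change of -0.39 (SE 0.17, adjusted p = 0.132 in limma).

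Marker genes of the cell types that the fragments could hold also differed between the ages (over all genes, 8.71% rose and 7.39% fell). Of 13 fibroblast markers 8 rose within WOS, and their summed level was 132280 to 269574 within WOS and 28033 to 68206 outside WOS. Of 17 markers of proliferating cells 16 rose, with sums of 3833 to 8108 within WOS and 506 to 2007 outside WOS. Of 16 luminal markers 4 fell, with sums of 55387 to 85713 within WOS and 78180 to 103895 outside WOS, and of 13 basal markers 1 rose and 1 fell, with sums of 28360 to 43952 and 38480 to 51955. The keratins *Krt8* (log2 fold change -0.18, adjusted p = 0.592), *Krt18* (-0.092, adjusted p = 0.733), *Krt5* (0.32, adjusted p = 0.277) and *Krt14* (0.15, adjusted p = 0.695) did not pass the test, and all 4 were present in every rat. Of the 9 hormone-sensing luminal markers only *Cited1* was called, and their summed level was 2755 to 5506 at 6 weeks and 2654 to 6470 at 10 weeks. These markers include *Esr1*, *Pgr* and *Cited1* themselves, so the count and the sum are not a separate measure of hormone-sensing cells. The part of these cell types in the values of the hormone genes was not tested.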

How the data were processed

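RNA-seq libraries of mammary epithelial cells, 1 from each rat, covered 6 rats aged 6 weeks and 7 aged 10 weeks. The limma p-values therefore set the difference between the ages against the spread between these rats. Ages and rat numbers come from the titles of the samples. The values are a score, namely RSEM counts that the authors scaled per library and rounded to whole numbers before they deposited them for 14790 genes. They are called normalized counts here, and the depth before scaling was not analysed. The submitters' processing notes name RSEM 1.2.22, edgeR, DESeq2 and the build rn5. The deposited table also holds the authors' own edgeR comparison of the ages, whose fold changes and p-values were not used.

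Members and lists were chosen with earlier results of these data known. The unit was taken as a score because the values are scaled, so a linear model of log values was used in place of a count model. limma 3.58.1 in R 4.3.3 was fitted to log2(normalized count + 1). A mean of at least 1 was required, which all 14790 genes met. The fit had no covariate and used a threshold of 0.05 after Benjamini-Hochberg adjustment. The fit was also run on simulated data, with normal noise drawn for each gene on its own. These data held no component shared by the genes of a rat, so the run does not show how the fit behaves with one. Correlations with *Esr1* used 100000 permutations within ages, or all of them in small groups, were two-sided, and were run with scipy 1.17.1, pandas 2.3.3 and numpy 2.4.6 under Python 3.11.15. The set of rats was taken from the largest gap on the first residual component. Promoter sequences come from RefSeq (GRCr8).

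The genes named are the 7 members, a fixed list of hormone, luminal and basal genes, the called genes of each of the 6 pathway lists (up to 5, by the size of the log2 fold change), and the 3 genes most like *Esr1*, *Pgr*, *Greb1* and *Nr3c1*. Other names, among them *Stc2*, *Tgfa*, *Igfbp4*, *Tgm2*, *Hbegf*, *Xbp1*, *Ncor1*, *Sdc1*, *Cdkn1c* and *Hsd17b12*, were added after their values were seen. Markers covered hormone-sensing luminal, luminal and basal epithelial cells, fibroblasts, adipocytes, endothelial cells, macrophages, lymphocytes, mast cells, skeletal muscle, proliferating cells and milk proteins. Alternatives were other scalings (median-ratio, library size, upper quartile), 0.1 as the pseudocount, genes with at least 10 in all rats, no filter, limma-trend, quality weights, the rat sets and each rat left out in turn. The values of 1 gene on the receptor list are not reported here.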

Additional observations from a re-analysis of the deposited data

Results flagged for a closer look

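Each age was screened for rats that stood apart from the others in the genes named, by the gap to the nearest rat as a share of the range (Dixon's criterion). The screen used the normalized counts without a log, unlike the fits above. Of 100 groups screened, for 50 records, 7 were flagged. Chance flags about 1 in 20 where values are normally distributed, which counts with a long upper tail need not be. Log values were not screened. On this count scale, rat 81 was flagged for 4 genes outside WOS. Its *Greb1* level was 81, with the other 6 rats between 1081 and 1515. Its *Cited1* level was 282, with the others between 25 and 134. Its *Ccnd1* level was 1353, with the others between 582 and 867. Its *Elf5* level was 572, with the others between 142 and 275. Also outside WOS, rat 78 was highest for *Zbtb16* at 211, with the others between 46 and 112. Within WOS, rat 71 was highest for *Nrip1* at 9161, with the others between 6447 and 7407, and rat 84 was lowest for *Pdk4* at 733, with the others between 1265 and 1462.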

How the results depend on the processing

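No paired analysis was possible because the ages share no replicate numbers. *Greb1* kept its direction in every setting but the smaller set of rats (0.49), and *Cited1* in every setting. The log2 fold change of *Greb1* passed the threshold with quality weights (-2.56) and in the larger set of rats (-3.65), and ran from -2.71 to -1.75 with 1 rat left out. That of *Cited1* did not pass under library size scaling (1.90), a pseudocount of 0.1 (1.87), the rat set as a term (1.83) or the smaller set (0.57), and ran from 1.55 to 2.16 with 1 rat left out. The sign turned for *Esr1* with quality weights (0.23) and in the larger set (0.057), with -0.15 to 0.074 when 1 rat was left out (above 0 without rats 75, 80, 86, 74 or 85). It also turned for *Pgr* in the smaller set (0.93), and for the second *Nr3c1* record in the larger set (-0.034), whose r with *Esr1* was -0.0039 without rats 84 and 85 and -0.45 in the larger set. With quality weights it turned for *Prlr* (0.058), *Foxa1* (0.32), *Elf5* (0.074), *Krt8* (0.11) and *Krt18* (0.087), in the larger set for *Foxa1* (0.42), *Elf5* (0.38), *Krt8* (0.15) and *Krt18* (0.0065), and in the smaller set for *Prlr* (0.14), *Ccnd1* (-0.24), *Krt5* (-0.016) and *Krt14* (-0.29). With 1 rat left out the values ran from -0.23 to 0.0031 for *Prlr*, from -0.30 to 0.095 for *Foxa1*, from -0.25 to 0.090 for *Elf5* and from -0.17 to 0.026 for *Krt18*.

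Of the 6 records, 2 were called with quality weights and in the larger set, 0 under library size scaling, a pseudocount of 0.1, the rat set as a term and in the smaller set, and 0 to 2 with 1 rat left out. Over all genes 5647 were called with quality weights (3009 higher within WOS, 2638 outside WOS), 1987 were called higher within WOS in the larger set, and in the smaller set, of 5 rats, 0 were called in limma, with 1993 at an unadjusted p under 0.05. With 1 rat left out 1411 to 2680 genes were called, 803 to 1461 of them higher within WOS and 608 to 1219 outside WOS, with the lowest total without rat 70, followed by 1488 without rat 84 and 1558 without rat 87. No list had a call in the smaller set. Quality weights gave 19 calls for the estrogen and progesterone list, 11 for coregulators, 5 for chaperones, 16 for glucocorticoid targets and 12 for steroid enzymes. Coregulators had 3 under library size scaling, chaperones 1 with the rat set as a term and steroid enzymes 10 in the larger set. With 1 rat left out the counts were 4 to 5 for receptors, 5 to 10 for the estrogen and progesterone list (5 without rat 70 or 72), 2 to 7 for coregulators (2 without rat 70 or 84, 3 without rat 71, 72, 74 or 87), 0 for chaperones, 6 to 11 for glucocorticoid targets and 2 to 8 for steroid enzymes (2 without rat 70). The cause of these changes was not tested. The share of calls higher within WOS was 54.1% and ran from 50.6% under median-ratio scaling to 62.7% under library size scaling. At low levels, as for *Fdxr* and *Akr1c19*, rounding to whole numbers limits the precision.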

Other observations

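Of the genes with the same 4 extreme rats as *Greb1*, those with the widest gap, found after the values were seen, were *Pla2g4d*, *Glycam1* and *Rmt1*. *Pla2g4d*, a phospholipase A2 gene, had at most 1 in rats 70, 84, 86 and 81 and at least 77 in the other 9. *Rmt1* had at most 165 in these 4 rats and at least 841 in the others. *Glycam1*, a mucin-like milk protein gene, went the other way, with at least 2517 in these 4 rats and at most 318 in the others. None of the 3 passed the test between the ages in limma, with log2 fold changes of -2.02 for *Pla2g4d* (adjusted p = 0.393), -1.13 for *Rmt1* (adjusted p = 0.592) and 0.67 for *Glycam1* (adjusted p = 0.826).

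Of the other marker lists, mast cell markers had 7 of 8 records higher and 1 lower within WOS, and 3 of 9 adipocyte markers, 1 of 10 endothelial markers and 1 of 6 lymphocyte markers rose. The lower mast cell record was *Kit*, which is also counted among the luminal markers that fell. Of 9 milk protein genes 1 fell. In limma 0 of 11 macrophage markers and 0 of 3 skeletal muscle markers were called, with 1 of each list at an unadjusted p under 0.05.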
